A study of Bos taurus and Cervus elaphus with 24 samples.

Results

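Transcripts of 10 complement genes were followed in blood of cattle and deer: CFP, CFD, CFB, C3, C5AR1, C3AR1, C1QA, C1QB, C1QC and CD55. Their members on the array were the non-control probes whose deposited gene name was one of these symbols, which gave 30 of 43653 probes. The array names 25232 genes or transcripts in all. The study hybridised blood RNA of each animal, labelled with Cy5, on Agilent bovine arrays against one Cy3-labelled pool from 20 cattle outside the groups. The 6 groups held 4 arrays each: Holstein-Friesian cattle (Bos taurus), Polish Red cattle (Bos taurus) and deer (Cervus elaphus), each in the dry period and in peak lactation. Per the series description each of the 12 animals gave blood once in either state, so the 24 arrays are pairs from the same animal. No treatment was given, and ages, parities and calendar times of bleeding were not used here. Values are log2 Cy5/Cy3, so 0 is the level of the bovine pool, and errors between animals are SD with n = 4.

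Complement is a cascade of plasma proteins that marks microbes and dying cells for uptake and lysis. It starts through C1q, a complex of A, B and C chains that binds antibody and is made by monocytes, macrophages and dendritic cells, through lectins, or through the alternative pathway, in which CFB, CFD and CFP build and stabilise the enzyme that cleaves C3. Fragments of C3 and C5 act on the receptors encoded by C3AR1 and C5AR1, which recruit neutrophils and monocytes, while CD55 is a membrane protein that takes the C3-cleaving enzyme apart. Most plasma complement is secreted by the liver, whereas CFP (properdin) comes mainly from neutrophils, monocytes and other leukocytes.

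The array carries 10 probes for C3, 4 for CFB, 3 each for C5AR1 and C1QB, 2 each for CFP, CFD, C1QA and CD55, and 1 each for C3AR1 and C1QC. Signal was well above background on all 24 arrays for 24 of the 30 probes. The exceptions were 3 of the 4 CFB probes and 3 of the 10 C3 probes. Each gene is led below by its brightest probe, and its other probes are given beside it where they differ. Coordinates are those of the deposited files, on the bovine build UMD 3.1, and exon or UTR positions were not analysed here.

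Over the whole series, 1 array stood apart in signal. The array of Polish Red animal 1 in the dry period had a median Cy5 intensity of 2038 and 703 spots called outliers by the scanner software, where the other 23 arrays had medians of 109 to 255 and at most 75 such spots. Its spike-in controls correlated with their expected ratios at 0.33. On the arrays of Holstein-Friesian animals 2 and 3 that correlation was 0.174 to 0.401, and on the other 19 arrays at least 0.899. The labelled cell source, nuclear cells of peripheral blood, was checked against markers: all 9 T cell, 6 B cell, 9 monocyte and 3 platelet genes measured, 11 of 13 neutrophil genes and 4 of 5 erythroid genes were above background on every array. The samples thus carried granulocyte and erythroid transcripts. The blood had been drawn whole into stabilising tubes, per the labels. Of 4 liver genes, 2 (APOA1 and TTR) were also above background on every array, and ALB and FGB were not. In bulk RNA of this kind, fewer cells of a type and less RNA per cell cannot be told apart.

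**Figure D1:**
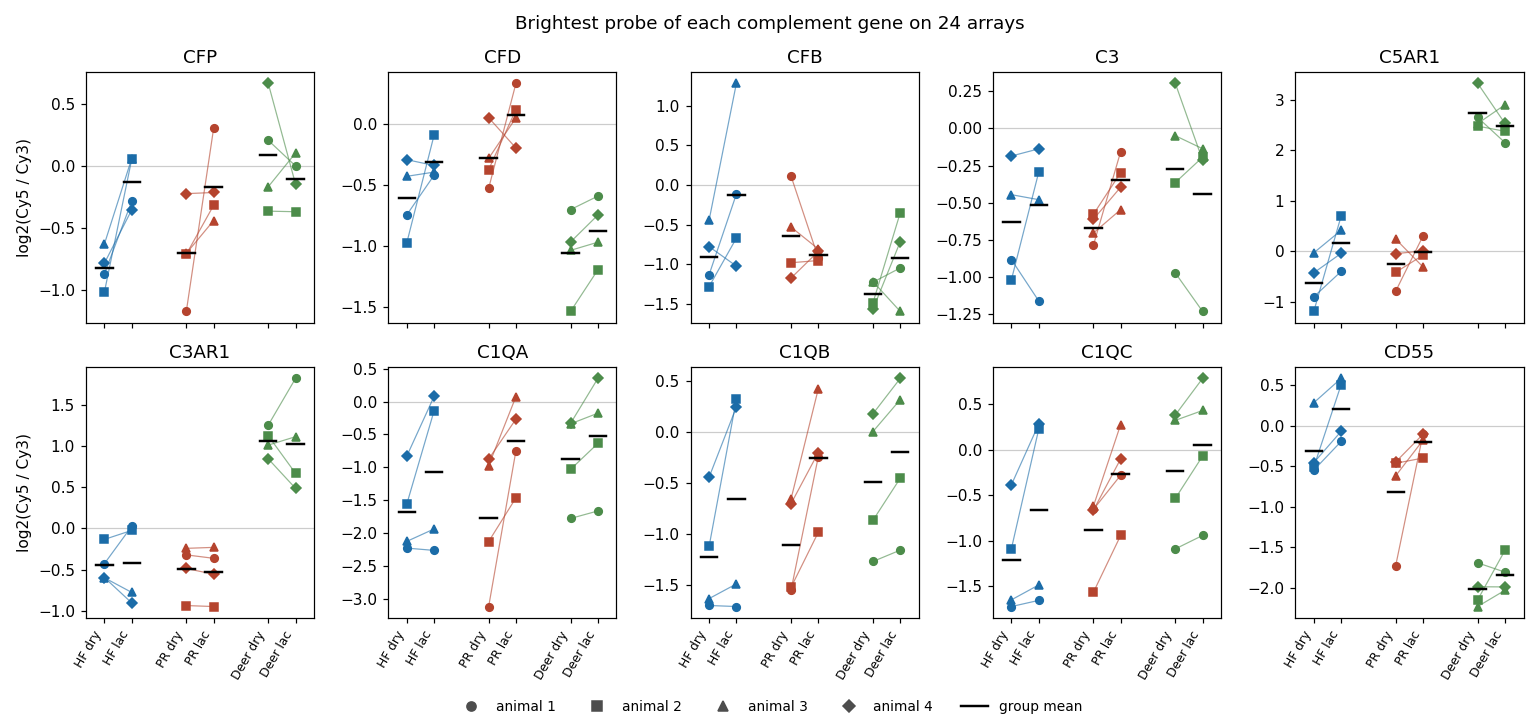
Each panel plots 1 complement gene, with log2 Cy5/Cy3 of its brightest probe on the vertical axis and the 6 groups on the horizontal axis; points are animals and bars are group means. The C5AR1 and C3AR1 points of deer lie above all 16 cattle points, and the points of the C1q chains are the most widely spread within groups.

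The first question was whether complement transcripts differ between peak lactation and the dry period within a breed. For each comparison the share of all tested probes that met the same criterion is given beside the members' count. In Holstein-Friesian cattle all 10 brightest probes had a higher mean in lactation, beside 47.3% of all probes tested. Their median difference was 0.56 on the log2 scale, beside -0.01 over all probes tested. None of the 28 member probes tested passed limma with Benjamini-Hochberg adjustment over all probes, and 0.00906% of all probes did. At an unadjusted p under 0.05 there were 9 member probes, from CFP, CFB, C5AR1 and CD55, beside 7.67% of all probes. Groups did not overlap, with lactation higher, for 2 member probes, both of CFP, beside 3.32% of all probes, and 12 member probes were higher in 4 of 4 animals, beside 12.3%. The one-way analysis of variance with Tukey's comparison that the series description names, with no adjustment over probes, called 1 member probe, the second CFP probe, beside 1.13% of all probes.

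Properdin, the stabiliser of the alternative pathway enzyme, had the smallest p of the 10 genes in Holstein-Friesian cattle. Its 2 probes are shown because they lie at separate places and so gave 2 readings of the same transcript, from 5′ to 3′:
CFP A_73_P346756: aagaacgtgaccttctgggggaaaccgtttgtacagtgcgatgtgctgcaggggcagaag
CFP A_73_118817: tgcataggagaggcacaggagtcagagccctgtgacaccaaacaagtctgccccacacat
The first lies at chrX:91441837-91441896 on the minus strand and is the brighter one. The second is placed at chrX:91444545-91444741 on the same chromosome.

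In Holstein-Friesian animals 1 to 4 the brighter CFP probe read -0.87, -1.02, -0.63 and -0.78 in the dry period. In lactation it read -0.29, 0.05, 0.06 and -0.35. All 4 lactation values lay above all 4 dry values, and every animal was higher in lactation, by 0.43 to 1.07. The mean difference was 0.69 (SE 0.21, 95% interval 0.26 to 1.12), with an unadjusted p of 0.0030 and an adjusted p of 0.34 by limma. The second probe differed by 0.55 (SE 0.16, adjusted p = 0.34 by limma), also without overlap. Without the arrays of animals 2 and 3, on whose arrays the spike-in controls correlated with their expected ratios at 0.174 to 0.401, the difference of the brighter probe was 0.51 (SE 0.30). In the authors' deposited table of 437 transcripts for this comparison the brighter CFP probe is the 1 member probe listed, with a mean of -0.56 in the dry period and 0.15 in lactation.

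In Polish Red animals 1 to 4 the brighter CFP probe read -1.17, -0.71, -0.70 and -0.22 in the dry period. In lactation it read 0.30, -0.32, -0.44 and -0.21. All 4 animals were higher in lactation, and the groups overlapped. Animal 4 was higher by 0.01 and animal 1, whose dry array is the one that stood apart, by 1.47. On the 3 slides that held both Polish Red states CFP was higher in lactation on 2. The mean difference was 0.53 (SE 0.21), with an unadjusted p of 0.0171 and an adjusted p of 0.85 by limma. With array weights, where the dry array of animal 1 had the lowest weight of all arrays (0.15), the difference was 0.25. In deer, the brighter CFP probe ranged from -0.36 to 0.66 in the dry period and from -0.37 to 0.10 in lactation. Its mean difference in deer was -0.19. The second CFP probe was less uniform, with changes in lactation of 0.25, 0.17, -0.20 and 0.31 in Polish Red animals 1 to 4. In deer 1 to 4 it changed by 0.10, 0.09, 0.13 and -0.49. Over both cattle breeds the mean difference of the brighter probe was 0.61 (SE 0.15, 95% interval 0.31 to 0.92), with an unadjusted p of 0.0004 and an adjusted p of 0.16 by limma. The difference between the deer effect and the cattle effect was -0.80 (SE 0.25, 95% interval -1.33 to -0.27) and did not pass, with an adjusted p of 0.56 by limma. It was -0.59 with the mean over the CFP probes. Read in the Cy5 channel, CFP was higher in lactation by 0.69 in Holstein-Friesian and by 0.60 in Polish Red cattle, while the Cy3 channel of the pool differed by -0.01 and -0.05.

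Transcripts of neutrophils and monocytes differed in the same direction as CFP in each breed or species. In Holstein-Friesian cattle 11 of 12 neutrophil genes tested were higher in lactation, with a median difference of 1.07, and so were 8 of 9 monocyte genes, with a median of 0.63. None of these genes passed limma after adjustment in any of the within-breed comparisons. The mean of the neutrophil list ran from -0.87 to -0.24 in the dry period and from -0.27 to 1.05 in lactation, and that of the monocyte list from -0.75 to -0.50 and from -0.49 to 0.36. In Polish Red cattle 10 of 12 neutrophil genes and 8 of 9 monocyte genes were higher, with medians of 0.46 and 0.53. In deer 3 of 12 and 3 of 9 were higher, with medians of -0.39 and -0.14. Of all probes tested, 47.3% were higher in Holstein-Friesian cattle, 56.6% in Polish Red cattle and 52.4% in deer. In Holstein-Friesian cattle 0 of 9 T cell genes, 0 of 6 B cell genes and 0 of 5 NK cell genes were higher in lactation, with medians of -0.13, -0.38 and -0.40. The part of these cell types in the CFP values was not tested.

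**Figure D2:**
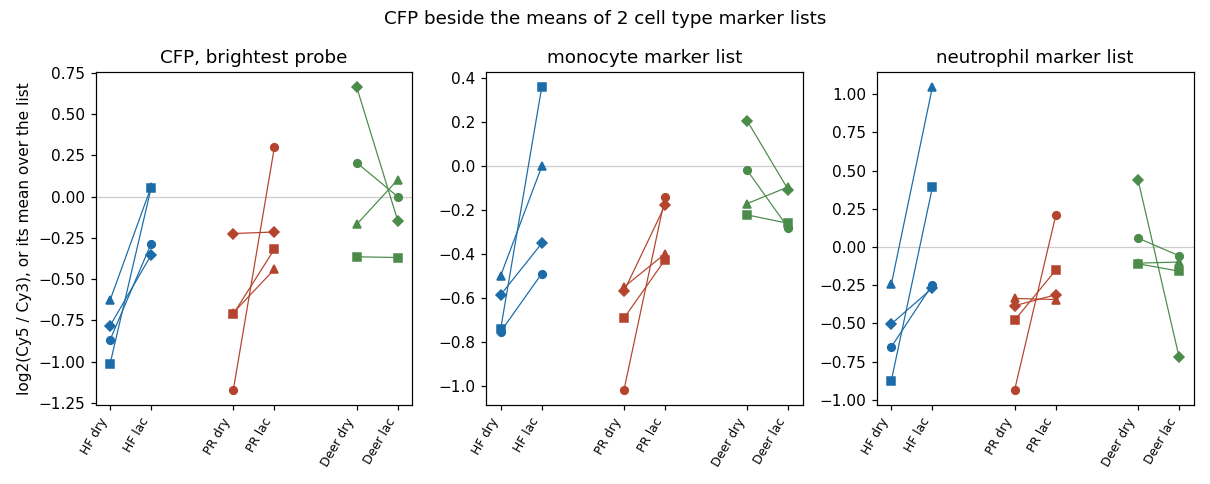
Panels side by side plot log2 Cy5/Cy3 of the brightest CFP probe, its mean over the monocyte marker list and its mean over the neutrophil marker list. The 6 groups are on the horizontal axis, and lines join the dry and the lactation value of the same animal. In the CFP panel the Holstein-Friesian dry arrays lie between -1.02 and -0.63, and their lactation arrays lie above them.

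Of the other alternative pathway genes, CFD encodes the protease that cleaves CFB bound to C3b. Its brightest probe lies at chr7:45032791-45032846. CFD averaged -0.61 ± 0.31 (SD, n = 4) in dry and -0.31 ± 0.15 in lactating Holstein-Friesian cattle, a difference of 0.30 (SE 0.18, adjusted p = 0.78 by limma). It averaged -0.28 ± 0.25 and 0.08 ± 0.22 in Polish Red cattle, and -1.06 ± 0.35 and -0.88 ± 0.26 in deer. In deer the difference was 0.18 and all 4 animals were higher in lactation, but the groups overlapped in all 3. The second CFD probe changed by -0.06, 0.16, 0.29 and -0.19 in deer 1 to 4. It changed by 0.37, 0.97, 0.03 and 0.20 in Holstein-Friesian animals 1 to 4. In Polish Red animals it changed by 1.57, -0.02, 0.03 and -0.19, where the dry array of animal 1 is the one that stood apart.

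CFB, the catalytic subunit of the alternative pathway enzyme, varied more between animals than CFD. Its brightest probe, at chr23:27225278-27225337 on the minus strand, read -1.13, -1.28, -0.44 and -0.78 in dry Holstein-Friesian animals 1 to 4. In lactation the same animals read -0.11, -0.67, 1.28 and -1.02. Animal 3 in lactation was far above the rest and animal 4 was lower in lactation than in the dry period. The mean difference was 0.78 (SE 0.36, adjusted p = 0.62 by limma), and 0.31 without the lactation array of animal 3, which also had the highest neutrophil list mean of the 24 arrays, 1.05. In Polish Red cattle CFB was -0.64 ± 0.57 (SD, n = 4) in the dry period and -0.88 ± 0.07 in lactation. Animal 1 in the dry period, on the array that stood apart, read 0.11, where animals 2 to 4 read -0.98, -0.53 and -1.17. The changes in lactation were -1.03, 0.03, -0.28 and 0.34 in Polish Red animals 1 to 4. The effects of the 2 breeds differed by 1.01, with a 95% interval of -0.04 to 2.07 and an adjusted p of 1.00 by limma. Of the other CFB probes, A_73_P270496 was above background on 2 arrays and A_73_P252986 on 3, and neither was tested.

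C3, the protein on which all starting routes converge, had a brightest probe at chr7:19025397-19025456. It averaged -0.63 ± 0.39 (SD, n = 4) and -0.52 ± 0.45 in dry and lactating Holstein-Friesian cattle, a difference of 0.11 (SE 0.26). Without the arrays of animals 2 and 3 that difference was -0.11. In Polish Red animals 1 to 4 the probe read -0.79, -0.58, -0.70 and -0.61 in the dry period and -0.16, -0.30, -0.55 and -0.39 in lactation. The Polish Red groups did not overlap for this probe, and its mean difference of 0.32 (SE 0.26) was within the spread pooled over all 6 groups. With the mean over all tested C3 probes the Polish Red difference was 0.08. In deer the difference of the brightest probe was -0.17. The 3 C3 probes that were not above background everywhere, on 14, 20 and 11 arrays, are those nearest the 5′ end of the transcript.

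In Polish Red cattle as a whole, 8 of the 10 brightest probes had a higher mean in lactation, beside 56.6% of all probes. Their median difference was 0.45, beside 0.02 over all probes. None of the 26 member probes tested passed limma after adjustment, nor did any of 32590 probes, a share of 0%. At an unadjusted p under 0.05 there were 3 member probes, 1 of CFP and 2 of CD55, beside 5.56% of all probes. Groups did not overlap for 2 member probes, of C3 and CD55, beside 0.967% of all probes, and 11 member probes were higher in 4 of 4 animals, beside 5.67%. No member probe is listed among the 158 of the authors' deposited table for Polish Red cattle.

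C5AR1 encodes the receptor of the C5 fragment, which is abundant on neutrophils and monocytes. Its brightest probe was higher in lactation in every Holstein-Friesian animal. That probe read -0.90, -1.19, -0.03 and -0.43 in dry animals 1 to 4 and -0.40, 0.69, 0.41 and -0.04 in lactation. The groups overlapped, since dry animal 3 lay above lactating animals 1 and 4. The mean difference was 0.80 (SE 0.27), with an unadjusted p of 0.0073 and an adjusted p of 0.43 by limma. Animal 2 alone differed by 1.88, and without animals 2 and 3 the difference was 0.44. In Polish Red cattle the difference was 0.23 (SE 0.27) and in deer -0.26. Probe A_73_P109881 changed by 0.21, 1.04, 0.36 and 0.21 in Holstein-Friesian animals 1 to 4 and by 0.51, 0.40, -0.42 and 0.05 in Polish Red animals. In deer it changed by 0.24, 0.68, -0.41 and 0.02. Probe A_73_111613 changed by 0.27, 0.66, 0.11 and -0.05, by -0.02, 0.11, -0.20 and -0.05, and by -0.11, 0.28, 0.06 and 0.08. The neutrophil and monocyte lists given beside CFP differed in the same direction as the brightest C5AR1 probe, and their part in it was not tested.

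C3AR1, the receptor of the C3 fragment, showed no such pattern. It averaged -0.44 ± 0.22 (SD, n = 4) in dry and -0.42 ± 0.49 in lactating Holstein-Friesian cattle, and -0.50 ± 0.31 and -0.52 ± 0.31 in Polish Red cattle. The differences were 0.02, -0.03 and, in deer, -0.04, each smaller than its standard error of 0.25.

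CD55, which protects the animal's own cells from complement, was higher in lactation in all 4 animals of both cattle breeds. Its brightest probe, at chr16:5105748-5105807, read -0.55, -0.51, 0.28 and -0.45 in dry Holstein-Friesian animals and -0.19, 0.51, 0.58 and -0.07 in lactation, a difference of 0.51 (SE 0.24, adjusted p = 0.64 by limma). In Polish Red animals it read -1.72, -0.46, -0.62 and -0.45 in the dry period and -0.10, -0.40, -0.18 and -0.10 in lactation. The Polish Red groups did not overlap, and animal 1 in the dry period, on the array that stood apart, was the lowest of all cattle. The Polish Red difference was 0.62 (SE 0.24, unadjusted p = 0.0193 by limma), and 0.31 without that array. In deer the difference was 0.17.

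**Figure D3:**
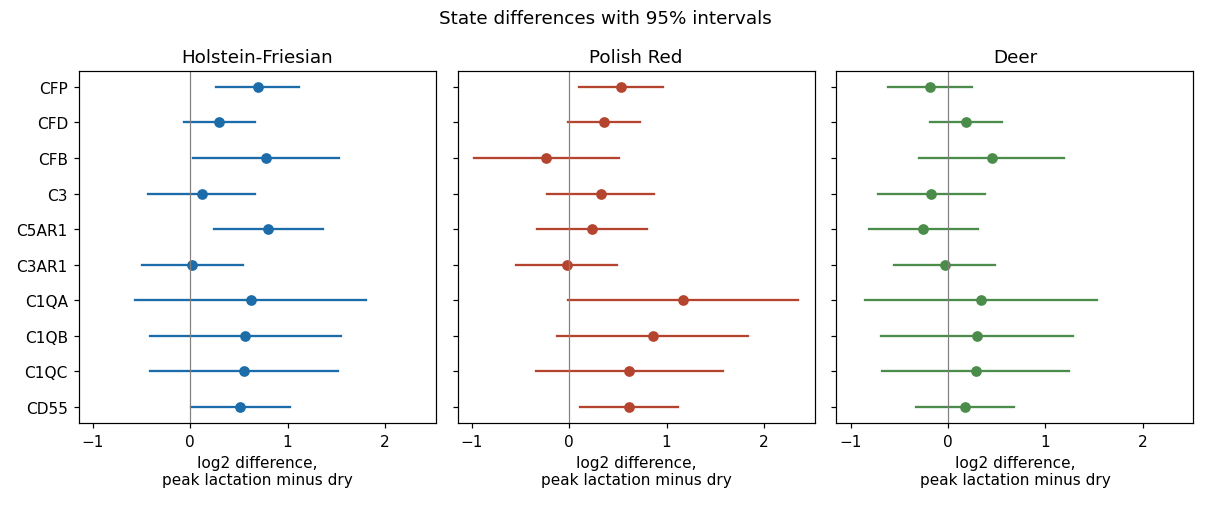
Points give the difference in log2 Cy5/Cy3 between peak lactation and the dry period for the brightest probe of each gene, with the 95% interval of the limma fit, in the 3 breeds or species. The interval of CFP lies above 0 in both cattle panels and spans 0 in deer, and the C1q chains have the widest intervals.

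The 3 chains of C1q were the most variable members between animals. Within cattle groups the residual SD was 0.92 for C1QA, 0.72 for C1QB and 0.70 for C1QC, where the median probe had 0.177, and these values stood at percentiles 99.8, 99.4 and 99.4 of all probes. In deer they stood at percentiles 99.4, 99.2 and 99.2. By comparison CFP had a residual SD of 0.29 in cattle. The animals of one group therefore differed more in C1q than in nearly any other probe, while sharing breed and state.

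The chains followed one another from array to array. C1QC, at chr2:130783987-130784046, read -1.72, -1.08, -1.65 and -0.38 in dry Holstein-Friesian animals 1 to 4 and -1.65, 0.23, -1.48 and 0.28 in lactation. Animals 1 and 3 were low in both states, whereas animals 2 and 4 were higher than them in both. C1QB read -1.70, -1.12, -1.63 and -0.44 and then -1.71, 0.32, -1.49 and 0.25 in the same animals. Across the 16 cattle arrays the correlation of C1QB with C1QA and with C1QC was 0.95, and C1QA and C1QC were the 2 closest of 12045 named genes to C1QB. Without the Polish Red array that stood apart, the chains correlated at 0.989 to 0.997, and each chain's 2 closest genes were the other chains. These correlations describe arrays that share animals and one reference pool.

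Within an animal, C1q was nearly always higher in lactation. The change of C1QC was 0.07, 1.31, 0.16 and 0.67 in Holstein-Friesian animals 1 to 4, and 0.38, 0.63, 0.90 and 0.57 in Polish Red animals. In deer it was 0.15, 0.47, 0.11 and 0.40. All 12 animals were therefore higher in lactation for C1QC, and so they were for 1 of the 2 C1QA probes and 1 of the 3 C1QB probes, with 11 of 12 for each of the other 3 C1q probes. These 3 of 28 member probes stand beside 60 of 35431 probes, or 0.169%, that were higher in lactation in all 12 animals. The count was chosen after its values were seen and carries no test. Over the brightest probe of each chain, 34 of 36 changes were above 0, and the exceptions were C1QA and C1QB of Holstein-Friesian animal 1, at -0.03 and -0.01.

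The mean differences of C1q were within the spread between animals. In Holstein-Friesian cattle they were 0.62 (SE 0.57) for C1QA, 0.57 (SE 0.47) for C1QB and 0.55 (SE 0.46) for C1QC, and in Polish Red cattle 1.17, 0.86 and 0.62. In deer they were 0.34, 0.30 and 0.28. Single arrays moved these values: in Holstein-Friesian cattle C1QA was 0.24 without the lactation array of animal 4 and 1.02 without that of animal 1, C1QB was 0.24 without that of animal 2 and C1QC was 0.24 without that of animal 4. In deer C1QB was 0.04 and C1QC was -0.01 without the dry array of animal 1. In Polish Red cattle C1QA changed by 2.37 in animal 1, whose dry array stood apart and read -3.11. Polish Red animals 2 to 4 changed by 0.66, 1.05 and 0.61. Over both cattle breeds C1QA differed by 0.89, and by 0.67 without that array. With the animal as a block, the standard error of C1QA was 0.27 in both cattle breeds, and over both breeds C1QB was 0.71 (SE 0.14, adjusted p = 0.0896 by limma) and C1QC was 0.58 (SE 0.12, adjusted p = 0.0902 by limma), still not past the threshold. On the 3 slides that held both Polish Red states each chain was higher in lactation on 2. On the 1 slide that held both deer states, with different animals, the mean of its 2 lactation arrays was below its dry array for all 3 chains, for C1QC by a difference of -0.40. The monocyte list mean differed between states by 0.23 to 1.1 per animal in Holstein-Friesian cattle, by 0.15 to 0.88 in Polish Red cattle and by -0.31 to 0.08 in deer. The part of monocytes in the C1q values was not tested.

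**Figure D4:**
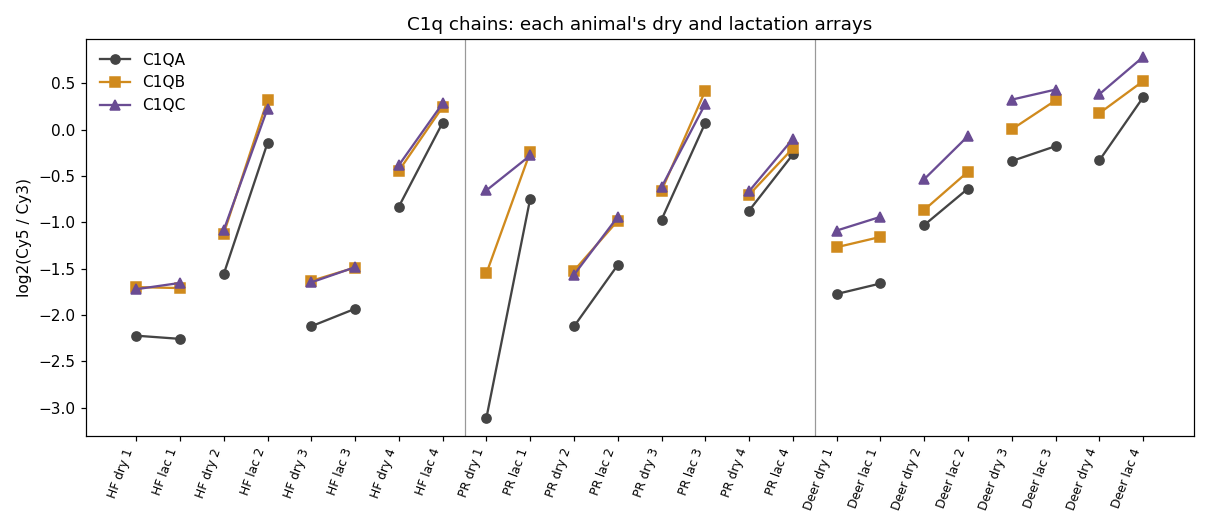
Lines join the dry and the lactation value of log2 Cy5/Cy3 of the same animal for the brightest probes of C1QA, C1QB and C1QC, coloured by chain. Vertical lines separate the breeds or species. Lines differ in height by more than they slope, and 34 of 36 are higher at the lactation end.

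In deer, 6 of the 10 brightest probes had a higher mean in lactation, beside 52.4% of all probes. Their median difference was 0.18, beside 0.01 over all probes. None of the 27 member probes tested passed limma after adjustment, beside 0.00599% of all probes, and none had an unadjusted p under 0.05, beside 9.06%. No member probe had groups that did not overlap with lactation higher, beside 2.31% of all probes, or with lactation lower, beside 2.07%, and 6 member probes were higher in 4 of 4 animals, beside 9.66%. In the authors' deposited table of 576 transcripts for deer no member probe is listed. The mean of the 2 cattle effects called 0 of 28 member probes in limma, beside 0.00299% of all probes, with 13 member probes of 6 genes at an unadjusted p under 0.05, beside 9.03%. The effects of the 2 cattle breeds differed for 0 member probes in limma, beside 0% of all probes, with 0 member probes at an unadjusted p under 0.05, beside 2.93%. The deer and cattle effects differed for 0 of 28 after adjustment in limma, beside 0% of all probes. At an unadjusted p under 0.05 there were 2, the brightest probes of CFP and C5AR1, beside 8.41%.

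Other complement genes, a list of 41 of which 35 had a probe, were set beside the members. None passed limma after adjustment in any of the within-breed comparisons. An unadjusted p under 0.05 held for 2 of 22 tested in Holstein-Friesian cattle, 1 of 21 in Polish Red cattle and 2 of 24 in deer. The shares of all probes were 7.67%, 5.56% and 9.06%. In Holstein-Friesian cattle 11 of the 22 tested were higher in lactation and 11 lower. FCN1, a recognition lectin of monocytes and also a gene of the monocyte list, had the smallest p in both cattle breeds, with differences of 0.62 (SE 0.23, adjusted p = 0.48 by limma) and 0.54 (adjusted p = 0.85). All 4 animals of each breed were higher in lactation for FCN1. In deer PTX3, a soluble pattern receptor that binds C1q, differed by -1.40 and was lower in lactation in all 4 animals.

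The second question was whether the 2 cattle breeds differ in the same state. In the dry period 0 member probes passed limma after adjustment, beside 2.62% of all probes, and 1 had an unadjusted p under 0.05, a C5AR1 probe at -0.24, beside 21.6% of all probes. In lactation 0 passed, beside 0% of all probes, and 2 had an unadjusted p under 0.05, a CFD probe at -0.39 and a CFB probe at 0.75, Holstein-Friesian minus Polish Red, beside 14.2%. Of the other complement genes 1 of 21 tested passed in the dry period, beside 2.62% of all probes. It was CR2, the B cell receptor for C3 fragments, higher in dry Holstein-Friesian than in dry Polish Red cattle by 0.73 (adjusted p = 0.0232 by limma).

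The third question was how deer differ from cattle in the same state. Deer RNA was read with bovine probes against a bovine pool, and deer sequence was not used here, so a lower transcript level and a weaker match to the probe cannot be told apart. No slide and no scan day held both deer and cattle arrays, so species cannot be told apart from slide or day either. In the dry period 16 of 27 member probes, from 7 genes, passed limma after adjustment, beside 56.7% of all probes, 8 higher and 8 lower in deer, beside 26.3% and 30.4%. That split was 13 higher and 7 lower with each array centred on its median, where 61.3% of all probes passed and the median of all probes was 0.21. It was 10 higher and 0 lower with the spread of the arrays equalised, where 34.2% of all probes passed, so no lower call in dry deer was made under that scaling. In lactation 12 of 27 passed, beside 48.6% of all probes, 4 higher and 8 lower, beside 21.7% and 26.8%. The groups did not overlap for 3 probes higher and 5 lower in the dry period, beside 15.7% and 19.6% of all probes, and for 3 higher and 7 lower in lactation, beside 12.6% and 16.7%. The share of member probes called was thus near that of all probes.

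Probes of one gene disagreed in deer, and their sequences are shown so that the probes' overlap can be read beside the disagreement. For C1QB the first 30 bases of each probe are given 5′ to 3′, and capitals mark the stretch that the first and second probe have in common, a run of 57 bases in the full probes with an offset of 3:
C1QB A_73_108812: tgaCGGAACAACAAATGACCTCTGAAATGA
C1QB A_73_P445276: CGGAACAACAAATGACCTCTGAAATGACCC
C1QB A_73_P040251: aaagcacacagtagggctccacgggtgttg
The first probe lies at chr2:130769027-130769086, the second at chr2:130769024-130769083 and the third, the brightest, at chr2:130769175-130769234.

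On cattle arrays the overlapping C1QB probes read alike, with A_73_108812 minus A_73_P445276 between -0.15 and 0.06 on 16 arrays. On the 8 deer arrays that gap was -2.41 to -1.02, although 57 of 60 bases are shared. The third probe minus A_73_P445276 was -0.23 to 0.68 in cattle and 2.16 to 3.12 in deer. Dry deer minus dry cattle was -3.70 on the log2 scale for A_73_108812 (13.0-fold lower) and -1.86 for A_73_P445276 (3.62-fold lower), both past the threshold. The third probe differed by 0.68 (adjusted p = 0.17 by limma) and did not pass. With the spread of the arrays equalised these were -1.26 (adjusted p = 0.20 by limma) and -0.22 (adjusted p = 0.84 by limma), and neither passed. In lactation the 3 differences were -3.81, -2.24 and 0.26, and the first 2 passed under that scaling as well, at -3.48 and -2.03. C1QA and C1QC, the partner chains, differed by 0.86 and 0.81 in the dry period and by 0.30 and 0.51 in lactation and did not pass.

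For C5AR1, stretches of 30 bases are given, 5′ to 3′. In the first pair capitals mark the first base at which the overlapping probes differ, C30A, with positions counted from 1 at the 5′ end of A_73_111613:
C5AR1 A_73_111613: caaggactctgccagaacaaCcagaaacac
C5AR1 A_73_P109881: caaggactctgccagaacaaAcagaaacac
C5AR1 A_73_P040076: ttctcggacttgtcctgcttcttttaggcg
The pair overlaps with an offset of 1 and differs at 6 positions when aligned without gaps. The third, the brightest, lies at chr18:54766658-54766717, just upstream of the pair.

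C5AR1 differed in direction between these probes. A_73_P040076 ranged from -1.19 to 0.69 on the 16 cattle arrays and from 2.15 to 3.32 on the 8 deer arrays, with no overlap. In deer it was higher by 3.19 (SE 0.24, 9.11-fold) in the dry period and by 2.41 (5.33-fold) in lactation, both past the threshold. A_73_P109881 was lower in deer, with differences of -0.66 (adjusted p = 0.0015 by limma) and -0.82, and so was A_73_111613, with -0.35 (adjusted p = 0.0032 by limma) and -0.37. With the spread of the arrays equalised the dry values were 2.03 for A_73_P040076, which passed, and -0.29 (adjusted p = 0.15 by limma) and -0.15 (adjusted p = 0.17 by limma) for the pair, which did not. In lactation all 3 passed under that scaling. Within an array A_73_P040076 minus A_73_P109881 was -0.63 to 0.22 in cattle and 2.61 to 4.08 in deer. No direction for C5AR1 in deer is therefore given by its probes together.

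C3AR1, with 1 probe, at chr5:102025941-102026000, ranged from -0.95 to 0.03 in cattle and from 0.49 to 1.82 in deer. It was higher in deer by 1.52 (2.88-fold) in the dry period and by 1.49 in lactation, past the threshold in both, and with no second probe to compare. CD55 was lower in deer with both probes. The differences were -1.45 (2.74-fold) and -1.63 in the dry period and -1.85 and -2.14 in lactation. Its probes read alike, since the gap between them was -0.64 to 0.51 in cattle and 0.01 to 0.40 in deer. With the spread of the arrays equalised, the dry differences of the CD55 probes were -0.61 (adjusted p = 0.11 by limma) and -0.74 (adjusted p = 0.0503 by limma), and neither passed.

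CFD was lower in deer with its brightest probe, with differences of -0.61 (adjusted p = 0.0018 by limma) in the dry period and -0.76 in lactation. Its second probe gave -1.46 and -1.79. With each array centred on its median the brightest CFD probe was 0.16 in the dry period, a change of direction, and -0.13 (adjusted p = 0.72 by limma) in lactation, and it passed in neither state. In Cy5 alone it was -0.32 and -0.36 and did not pass, and with the spread equalised the dry values of the 2 CFD probes were -0.14 and -0.60 and did not pass. CFP was higher in dry deer, by 0.85 (SE 0.18, adjusted p = 0.0004 by limma) with the brighter and 0.84 with the second probe. In lactation the brighter CFP probe differed by 0.05 (adjusted p = 0.86 by limma) and the second probe by 0.45 (adjusted p = 0.0114 by limma). Of the 10 C3 probes, 4 were higher in dry deer: A_73_P380496 by 0.62, A_73_P275236 by 0.51, A_73_P101151 by 0.39 and A_73_P478688 by 0.32. The brightest C3 probe, at 0.38 (adjusted p = 0.16 by limma), did not pass, and in lactation A_73_P380496 alone of the C3 probes passed, at 0.41. No CFB probe passed.

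**Figure D5:**
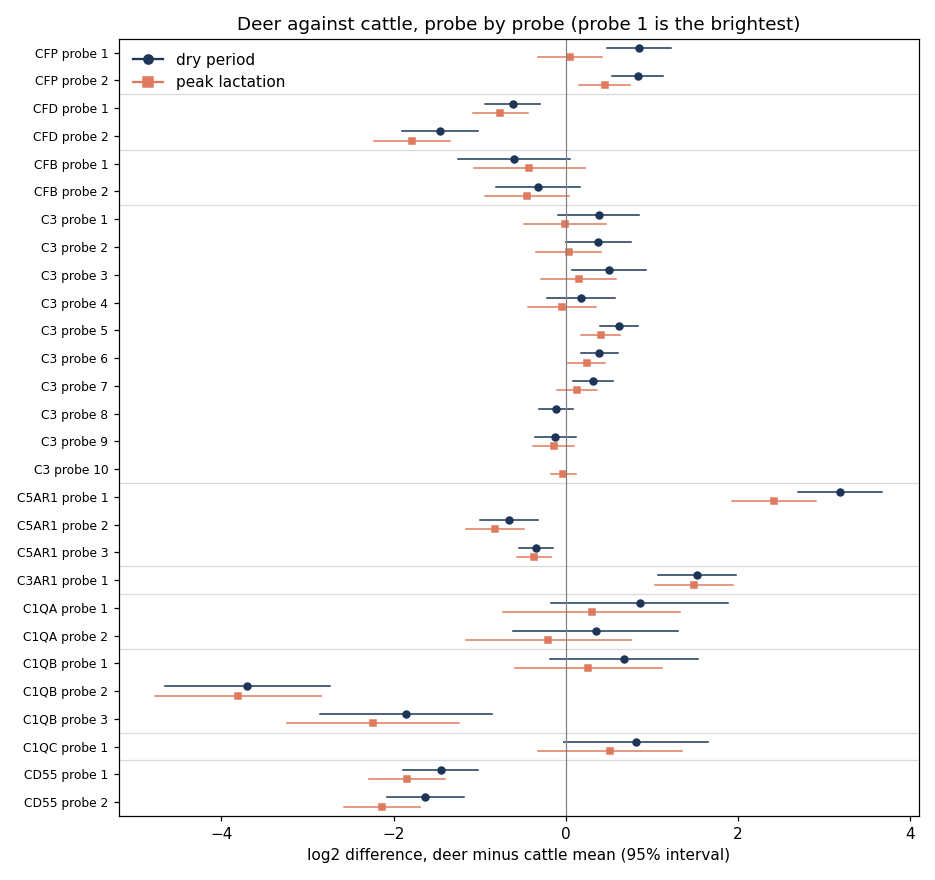
Points give deer minus the mean of the 2 cattle breeds in log2 Cy5/Cy3 for each tested member probe, grouped by gene, in the dry period and in peak lactation. Probes of C5AR1 and of C1QB lie on both sides of 0, and both CD55 probes lie below it in both states.

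Of 25 other complement genes tested in deer against dry cattle, 6 were higher and 8 lower at the same threshold, beside 26.3% and 30.4% of all probes. In lactation 3 of 25 were higher and 9 lower, beside 21.7% and 26.8%. The share called in both directions together was thus near that of all probes, 56.7% and 48.6%. FCN1 gave differences of -4.21 and -4.56, and CLU, which holds back the terminal complex, gave -3.29 and -3.09. CD46, a membrane cofactor for inactivating C3b, was higher by 1.44 and 1.43. The cautions on bovine probes and on slides hold for each of them.

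Genes whose values followed each member most closely over the 16 cattle arrays were picked as the 2 with the highest correlation among 12045 named genes. For CFP they were TIMP2 (0.93) and TNFRSF1A (0.92), and for C5AR1 TNFRSF1A and UPP1 (both 0.94). For CFB they were SLC30A4 (0.87) and CATHL1 (0.86), the latter an antimicrobial peptide gene of neutrophils. For CFD they were DOK3 (0.90) and SCAMP5 (0.87), for C3 TNFSF13 (0.81) and DCXR (0.78), and for C3AR1 SPATA20 (0.83) and PLEKHA4 (0.81). For CD55 they were LAMP2 (0.97) and SNX3 (0.96). Without the Polish Red array that stood apart, the 2 closest genes of CD55 were LOC508666 and TMEM33. GRINA then replaced CATHL1 for CFB, SLC16A6 replaced TNFRSF1A for CFP, ASRGL1 replaced DOK3 for CFD and IFIT3 replaced UPP1 for C5AR1. Those of C3 and C3AR1 stayed the same. All these correlations describe arrays that share animals, breeds and states.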

How the data were processed

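Blood RNA of 12 animals in 2 states was read on 24 Agilent 2-colour arrays, with the animal in Cy5 and the pool in Cy3 on each array, per the labels. The deposited spot intensity values are mean signals and median local backgrounds from Agilent Feature Extraction, version 10.10.1.1 per the file headers and 10.7.3.1 per the submitters' processing notes. The deposited log10 ratios, an alternative here, are dye-normalized processed signals per the file headers. The log2 values in the authors' deposited tables of selected transcripts came from Gene Spring, per the series description. Arrays were grouped by their labels. From the signals, background was corrected with normexp (offset 50), ratios were normalized by loess within each array with the 1417 control spots at weight 0, spots called outliers were left out and spots of a probe were averaged. A probe was tested where Cy5 was well above background on 3 of 4 arrays of a group. The values of the 6 groups were fitted together with limma 3.58.1 in R 4.3.3, with Benjamini-Hochberg adjustment over all tested probes, a threshold of 0.05 and no animal term, and figures were drawn with matplotlib 3.10.9. The procedure was tested on simulated data.

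Each gene was led by its probe of highest mean intensity. Of the other complement genes, those past the threshold (at most 6 by p) or the 3 of smallest p were candidates for naming. The members and lists were chosen with earlier results of these data known. Subject numbers pair the arrays of an animal, per the series description. Same-numbered arrays deviated together, at a correlation above 0.1, in 4 of 4 Holstein-Friesian, 2 of 4 Polish Red and 4 of 4 deer pairs. Alternatives covered background, normalization, channel, filter, animal, slide, array position, array weights, the samples fitted, the test and each array left out. The number of arrays limits the precision. The 24 arrays lay on 10 slides scanned on 8 days. The pairs of the 4 Holstein-Friesian animals each shared a slide, and on those slides CFP was higher in lactation in 4 of 4. There the dry array was always at position 1 and the lactation array at position 3 or 4. State and array position cannot be told apart on these slides.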

Additional observations from a re-analysis of the deposited data

Results flagged for a closer look

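Of 60 sets of 4 values, 1 for each gene's brightest probe in each group, 4 held an animal far from the other 3, and chance alone gives about 1 in 20. C3 read -1.23 in deer 1 in lactation, where the other 3 deer read -0.21 to -0.14. C1QC read -1.57 in Polish Red animal 2 in the dry period, where the others read -0.66 to -0.62. CD55 read 0.28 in Holstein-Friesian animal 3 in the dry period, where the others read -0.55 to -0.45. CD55 also read -1.72 in Polish Red animal 1 in the dry period, on the array of high signal, where the others read -0.62 to -0.45. No brightest probe had a state effect that differed between breeds or between deer and cattle after adjustment in limma.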

How the results depend on the processing

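Under 15 alternatives and with each array left out, no member probe passed in the state comparisons or between breeds, except as follows. With median centring 1 probe passed between dry Holstein-Friesian and dry Polish Red cattle, CD55 at 0.91, beside 18.2% of all probes. With array weights 1 passed for the deer effect minus the cattle effect, CFP at -0.69 (adjusted p = 0.0446 by limma), beside 8.86%. With Tukey's comparison 1 passed in Holstein-Friesian cattle, CFP at 0.55, beside 1.13%. Between deer and cattle in the dry period the count was 10 with scaling between arrays, beside 34.2% of all probes, and 14 to 19 with an array left out, beside 52.3 to 59.2%, lowest without deer 2 and highest without deer 1. In lactation it was 12 to 13, beside 39.8 to 52.0%. CFD in dry deer was 0.16 with median centring against -0.61. The mean over the C1QB probes was -1.63 in dry and -1.93 in lactating deer against 0.68 and 0.26 for the brightest, since its other 2 probes are the low ones. For the first 3, the cause was not tested. With the animal as replicate block the calls were 0 for each state comparison and 16 and 12 for deer against cattle, so it changed no call. Unadjusted p under 0.05 then held for 17 member probes in Holstein-Friesian cattle, 10 in Polish Red cattle and 2 in deer, beside 9.47%, 7.16% and 10.6% of all probes. CFP in Holstein-Friesian cattle ranged from 0.51 to 0.77. CD55 there ranged from 0.14, with array position as a fixed factor, to 0.71. C1QC there ranged from 0.24 to 1.19, the latter with array position as a fixed factor. Signal near background limits 3 CFB and 3 C3 probes.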
